A study of Mus musculus with 8 samples.

Results

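The genes described here are 9 markers of the fibro-adipogenic and stromal cells of skeletal muscle: Pdgfra, Pdgfrb, Dcn, Lum, Cd248, Ly6a, Tcf7l2, Thy1 and Fbn1. They were chosen by name, as loci whose gene symbol equals or contains the marker, out of 23115, 22923 and 22777 loci with a symbol in the female knockout, male knockout and KI tables. All 9 were found once in each table, 0 of them merged with another gene, and all with status OK, so every value is given without an expression filter.

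RNA-seq was made from primary myoblasts of B6/129 mice, grown from sorted satellite cells (the stem cells of muscle) in medium with 20% serum, 2.5 ng/mL FGF and 2.5 µM 4-hydroxytamoxifen and then differentiated for 24 h. The 8 libraries form 6 groups in 3 tables: 1 female UTX knockout (KO) and 1 female wild type (WT) library, 1 male KO and 1 male WT library, and 2 KI and 2 Ctrl-KI libraries, all 4 from females. Both female KO and female WT mice carried Pax7-CreER, a Cre active in Pax7-expressing cells once tamoxifen is given, and the Rosa26-Floxed-TdTomato reporter, and the female KO mice carried UTX-Floxed as well. For the male, KI and Ctrl-KI libraries the labels give sex and the group name but no genotype line, and they do not say what KI carries. UTX is the H3 lysine 27 demethylase encoded by Kdm6a. Cells were sorted for TdTomato before differentiation. Ages, animals per library and clones are not stated, so a single library may stand for 1 culture.

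Fibro-adipogenic progenitors are interstitial mesenchymal cells of muscle that support satellite cells during repair and can turn into fibroblasts and fat cells. They are commonly recognised by PDGF receptor alpha and Sca-1 (Ly6a) and lack Pax7, whereas PDGF receptor beta and Cd248 also mark pericytes and other mural cells. Several of these genes are also used by other cell types, so a marker in bulk RNA does not name its source.

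The values are FPKM (fragments scaled for transcript length and sequencing depth), and each is given with the authors' deposited confidence interval, whose level is not stated. Each knockout column is 1 library and each KI or Ctrl-KI column pools 2, so no comparison within a table has a replicate check or a p-value. Ratios are log2((FPKM + 1)/(FPKM + 1)), KO over WT or KI over Ctrl-KI, which understates the change of low genes. Relative to the FPKM, the median width of this interval was 119% for female KO, 165% for male KO and 39.8% for the pooled KI libraries. Read depth is unknown. In FPKM under 0.3, where single reads show as steps, the most frequent KO-to-WT ratio was 0.664 in the female table and 0.991 in the male table. Kdm6a, read over the whole gene, was 16.9 FPKM (interval 7.95 to 25.8) in female KO and 20.8 (9.71 to 31.9) in female WT cells. It was 2.08 (0.0854 to 4.07) in male KO and 7.87 (1.57 to 14.2) in male WT cells, and 13.2 (10.7 to 15.8) in KI and 12.8 (10.3 to 15.2) in Ctrl-KI cells. The intervals overlapped in each pair, and the floxed part of the gene is not given, so Kdm6a checks the knockout labels only weakly. In bulk RNA, more cells of a type and more RNA per cell cannot be told apart.

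Of the 9 markers, 7 were above WT in female KO cells, 8 above WT in male KO cells and 8 above Ctrl-KI in KI cells, where 35.6%, 40.8% and 40.3% of all loci lay above their control in the female KO, male KO and KI comparisons. Other markers led each time. In female KO cells 4 of 9, the PDGF receptors, decorin and fibrillin-1, were at least 2-fold higher, against 2.4% of all loci. In male KO cells 4 of 9, Thy1, fibrillin-1, Ly6a and Cd248, were (4.95% of loci), while both receptors and decorin stayed under 1 FPKM. In KI cells 6 of 9, Dcn, Pdgfrb, Cd248, Fbn1, Thy1 and Ly6a, were (1.88% of loci), by up to 4.64 on the log2 scale, a size that depends on the FPKM added (6.71 with 0.1 and 2.69 with 5 for Dcn). Tcf7l2 lay within 0.25 log2 units of its control in every comparison. No member was at least 2-fold lower in any of the 3 comparisons.

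**Figure D1:**
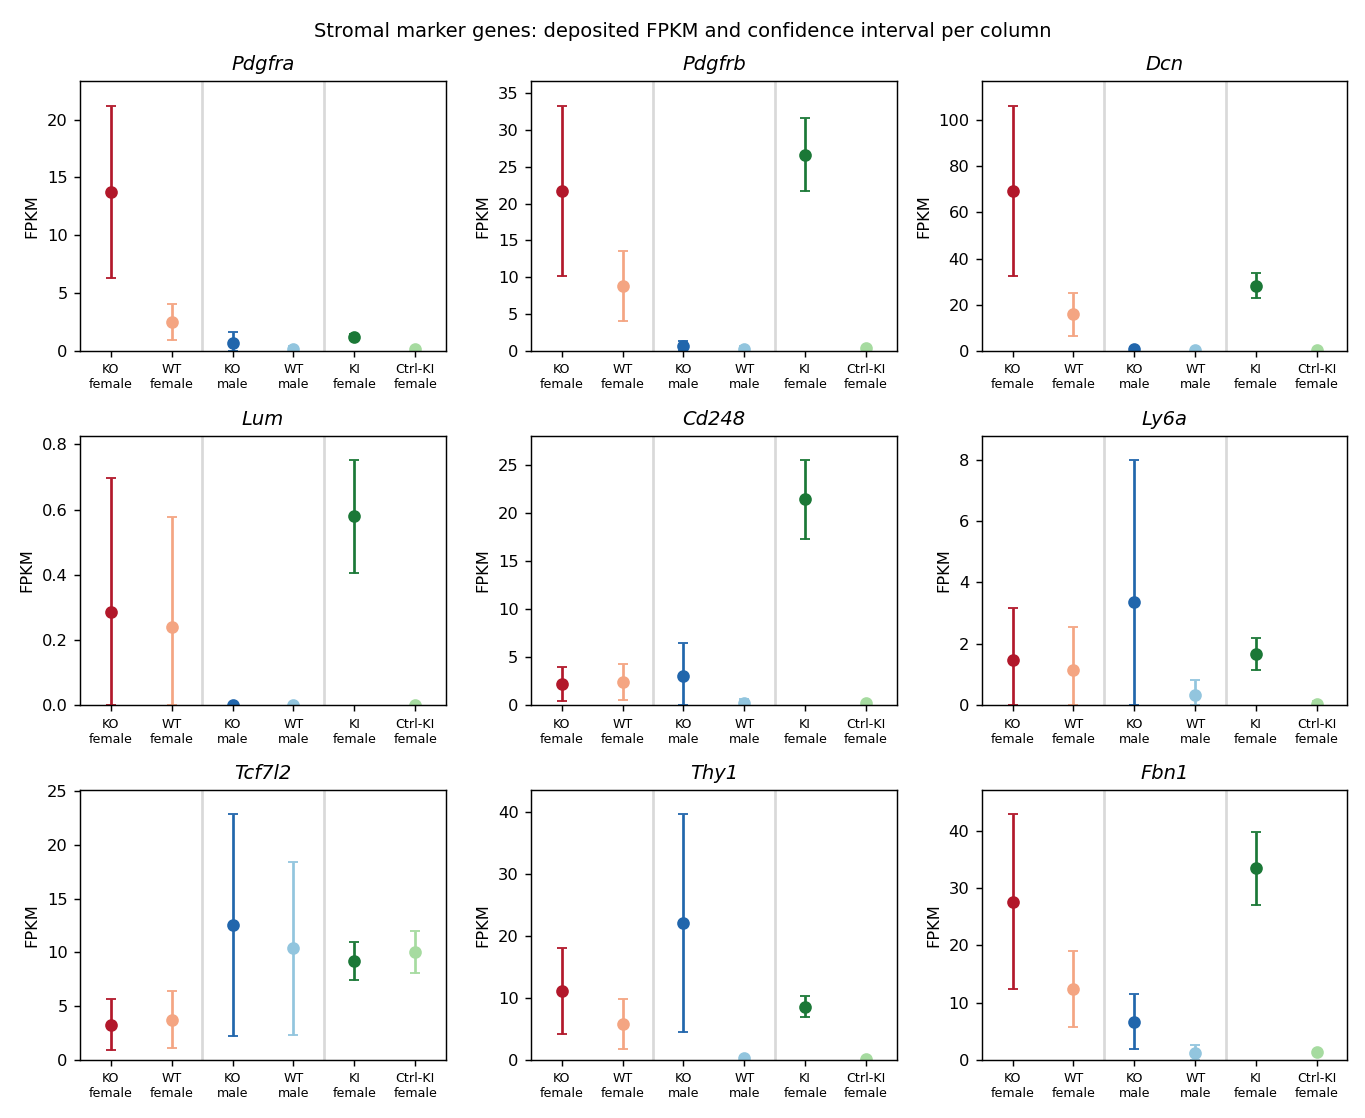
Deposited FPKM (points) and deposited confidence interval (bars) of the 9 marker genes in the 6 columns, each panel with its own linear axis from 0; grey lines part the 3 tables, which were estimated separately, and KI and Ctrl-KI columns each pool 2 libraries. The female KO column holds the highest Pdgfra (13.7 FPKM) and Dcn (69.4), the male KO column the highest Thy1 (22.1), and the KI column the highest Pdgfrb (26.7), Cd248 (21.5) and Fbn1 (33.5).

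Pdgfra, the receptor tyrosine kinase by which fibro-adipogenic progenitors respond to PDGF (mm9 chromosome 5, 75548316 to 75594229), was 13.7 FPKM (interval 6.25 to 21.2) in female KO and 2.46 (0.894 to 4.02) in female WT cells. The intervals were apart, and the log2 ratio of 2.09 ranked 27 of 23109 loci. In males Pdgfra was 0.697 FPKM (0 to 1.61) in KO and 0.179 (0 to 0.415) in WT cells, both under 1 FPKM with overlapping intervals and a log2 ratio of 0.52. In the KI table it was 1.19 FPKM (0.945 to 1.44) in KI and 0.162 (0.114 to 0.209) in Ctrl-KI cells. Those intervals were apart, yet the KI level was low and the log2 ratio, 0.92, missed 2-fold.

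Pdgfrb, the related receptor of pericytes and fibroblasts (mm9 chromosome 18, 61204804 to 61244721), was 21.7 FPKM (10.2 to 33.3) in female KO and 8.78 (4.05 to 13.5) in female WT cells. The log2 ratio was 1.22, with overlapping intervals. It was 0.655 FPKM (0 to 1.39) in male KO and 0.269 (0 to 0.666) in male WT cells, a log2 ratio of 0.38. It was 26.7 FPKM (21.7 to 31.6) in KI and 0.442 (0.334 to 0.549) in Ctrl-KI cells, an FPKM ratio of 60.4 and a log2 ratio of 4.26 that ranked 24 of 22762 loci. Pdgfrb over Pdgfra, both per transcript length, was 1.58 in female KO and 3.58 in female WT cells, 0.941 in male KO and 1.50 in male WT cells, and 22.4 in KI and 2.73 in Ctrl-KI cells. Both receptors were under 1 FPKM in the male and Ctrl-KI columns, so their ratio there rests on few reads.

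The PDGF ligands that these receptors bind were measured as a list of 4. At least 2-fold higher were 0 of 4 in female KO, 1 of 4 in male KO and 0 of 4 in KI cells (2.4%, 4.95% and 1.88% of all loci). At least 2-fold lower were 0 of 4 in each comparison (2.35%, 3.24% and 0.435% of all loci). Pdgfa, the main ligand of the alpha receptor, was 41.9 FPKM in female KO and 41.6 in female WT cells, 41.1 in male KO and 30.3 in male WT cells, and 24.9 in KI and 24.0 in Ctrl-KI cells. Pdgfb, a ligand of both receptors, was slightly below its control in both sexes, with 9.60 FPKM in female KO and 10.9 in female WT cells, and 5.92 in male KO and 6.60 in male WT cells. Pdgfc was the highest ligand by ratio in females, with 4.78 FPKM in KO and 3.03 in WT cells. The ligand past 2-fold was Pdgfd in males, 6.73 FPKM (0.605 to 12.9) in KO and 2.59 (0 to 5.71) in WT cells, with overlapping intervals.

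Among the surface proteins, Thy1, a small glycolipid-anchored protein of fibroblasts and T cells (mm9 chromosome 9, 43851467 to 43856662 in the knockout tables), was the member with the largest ratio in males. It was 22.1 FPKM (4.55 to 39.6) in male KO and 0.241 (0 to 0.561) in male WT cells, with intervals apart and a log2 ratio of 4.22 that ranked 16 of 22862 loci. In females it was 11.1 FPKM (4.20 to 18.1) in KO and 5.72 (1.71 to 9.73) in WT cells, a log2 ratio of 0.85 with overlapping intervals. It was 8.59 FPKM (6.87 to 10.3) in KI and 0.183 (0.0937 to 0.272) in Ctrl-KI cells, a log2 ratio of 3.02 with intervals apart. In male KO cells Thy1 was thus above Dcn, which was 0.768 FPKM there.

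Ly6a, also known as Sca-1, the surface antigen used to sort fibro-adipogenic progenitors (mm9 chromosome 15, 74825307 to 74828318), was low throughout. It was 1.47 FPKM (0 to 3.17) in female KO and 1.14 (0 to 2.55) in female WT cells, 3.37 (0 to 7.98) in male KO and 0.341 (0 to 0.820) in male WT cells, and 1.68 (1.16 to 2.19) in KI and 0.0529 (0 to 0.126) in Ctrl-KI cells. The log2 ratios were 0.21, 1.71 and 1.35, and the KI intervals alone were apart. Ly6a belongs to a cluster of closely related genes, so its reads may be shared with paralogues and its FPKM is uncertain. Of 8 other Ly6 genes measured, the single one to reach 1 FPKM was Ly6e, with 17.0 FPKM in female KO and 8.13 in female WT cells, 28.6 in male KO and 10.8 in male WT cells, and 8.37 in KI and 4.92 in Ctrl-KI cells.

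Cd248, or endosialin, a C-type lectin of pericytes and activated fibroblasts (mm9 chromosome 19, 5068078 to 5070639 in the knockout tables), was low in females. It was 2.2 FPKM (0.402 to 3.99) in female KO and 2.44 (0.579 to 4.30) in female WT cells, a log2 ratio of -0.10 that turned to 0.02 with values rescaled to TPM. It was 3.09 FPKM (0 to 6.53) in male KO and 0.263 (0 to 0.609) in male WT cells, a log2 ratio of 1.69 with overlapping intervals. In KI cells it was 21.5 FPKM (17.4 to 25.6), against 0.205 (0.126 to 0.285) in Ctrl-KI cells, an FPKM ratio of 105 and a log2 ratio of 4.22 with intervals apart. Its relatives in the same lectin group, known from endothelium, gave other values. Thbd, the thrombin receptor thrombomodulin, was 8.46 FPKM in female KO and 3.88 in female WT cells, 39.8 in male KO and 3.07 in male WT cells, and 5.81 in KI and 2.23 in Ctrl-KI cells. Cd93 reached 1 FPKM only in females, with 4.72 FPKM in KO and 1.94 in WT cells.

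Tcf7l2, a transcription factor at the end of the Wnt pathway that marks muscle connective tissue fibroblasts in mouse (mm9 chromosome 19, 55816300 to 56008145 in the female table), did not reach 2-fold in any comparison. It was 3.25 FPKM (0.860 to 5.64) in female KO and 3.74 (1.07 to 6.40) in female WT cells, 12.5 (2.18 to 22.8) in male KO and 10.4 (2.33 to 18.4) in male WT cells, and 9.17 (7.39 to 11) in KI and 10.0 (8.10 to 12) in Ctrl-KI cells. The log2 ratios were -0.16, 0.25 and -0.12 with overlapping intervals in each table, and with TPM over all loci the male one turned to -0.44 and the KI one was -0.84. The male WT and Ctrl-KI columns, where the other 8 members summed to 2.78 and 2.65 FPKM, had Tcf7l2 intervals that overlapped those of the male KO and KI columns. Among other factors of the family, Tcf7l1 was 7.5 FPKM in female KO and 4.24 in female WT cells, 19.7 in male KO and 7.93 in male WT cells, and 7.0 in KI and 5.83 in Ctrl-KI cells. Tcf7 was 5.0 FPKM in female KO and 9.82 in female WT cells, 3.59 in male KO and 4.92 in male WT cells, and 8.86 in KI and 5.54 in Ctrl-KI cells.

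The matrix members are 2 small leucine-rich proteoglycans, Dcn and Lum, which bind collagen fibrils, and Fbn1, the fibrillin of extracellular microfibrils. Dcn (mm9 chromosome 10, 96942134 to 96980796) was 69.4 FPKM (32.5 to 106) in female KO and 15.9 (6.54 to 25.2) in female WT cells, a log2 ratio of 2.06 with intervals apart. It was 0.768 FPKM (0 to 1.72) in male KO and 0.245 (0 to 0.577) in male WT cells, a log2 ratio of 0.51. It was 28.3 FPKM (22.9 to 33.7) in KI and 0.171 (0.0873 to 0.256) in Ctrl-KI cells. The FPKM ratio of 165 and log2 ratio of 4.64 were the largest of the 9 members in any comparison, and the log2 ratio ranked 16 of 22762 loci.

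Lum starts 47338 bases beyond the end of Dcn on the same chromosome (97028135 to 97035337) and was nearly silent beside it. It was 0.287 FPKM (0 to 0.697) in female KO and 0.241 (0 to 0.576) in female WT cells, listed at 0 in male KO and male WT cells, and 0.579 (0.406 to 0.752) in KI cells, against a listing at 0 in Ctrl-KI cells. Lum was thus under 1 FPKM even in the columns with 69.4 and 28.3 FPKM of Dcn. The other small leucine-rich proteoglycans differed in direction. Of 10 measured, 2 were at least 2-fold higher and 0 lower in female KO, 1 higher and 1 lower in male KO, and 2 higher and 1 lower in KI cells. Over all loci, 2.4%, 4.95% and 1.88% were 2-fold higher and 2.35%, 3.24% and 0.435% lower in these comparisons. Bgn, biglycan, was 522 FPKM in female KO and 210 in female WT cells, 23.4 in male KO and 11.1 in male WT cells, and 379 in KI and 8.22 in Ctrl-KI cells. Ogn, osteoglycin, was lower in each comparison, with 53.6 FPKM in female KO and 92.5 in female WT cells, 72.2 in male KO and 242 in male WT cells, and 129 in KI and 264 in Ctrl-KI cells.

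Fbn1 (mm9 chromosome 2, 125126330 to 125332174 in the female table) was the single member at least 2-fold higher in all 3 comparisons, and its FPKM reached 1 in each column. It was 27.7 FPKM (12.4 to 42.9) in female KO and 12.4 (5.80 to 19.0) in female WT cells, a log2 ratio of 1.10 with overlapping intervals. It was 6.69 FPKM (1.86 to 11.5) in male KO and 1.24 (0 to 2.50) in male WT cells, a log2 ratio of 1.78 with overlapping intervals. It was 33.5 FPKM (27.1 to 39.9) in KI and 1.44 (1.15 to 1.72) in Ctrl-KI cells, a log2 ratio of 3.82 with intervals apart. Of 16 other microfibril and elastic fibre genes, 1 was at least 2-fold higher and 1 lower in female KO, 9 higher and 1 lower in male KO, and 9 higher and 0 lower in KI cells. The shares of all loci were 2.4%, 4.95% and 1.88% higher and 2.35%, 3.24% and 0.435% lower. Among the 16 genes, of those with at least 1 FPKM in 1 column, the highest ratio in both sexes was that of Fbln2, fibulin-2. It was 94.5 FPKM in female KO and 41.7 in female WT cells, and 128 in male KO and 6.36 in male WT cells. It was 97.3 in KI and 7.08 in Ctrl-KI cells. The lowest was that of Mfap4, a microfibril-associated glycoprotein, at 1.38 FPKM in female KO and 12.8 in female WT cells, and 0.108 in male KO and 1.92 in male WT cells, whereas it was 10.9 in KI and 6.18 in Ctrl-KI cells.

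**Figure D2:**
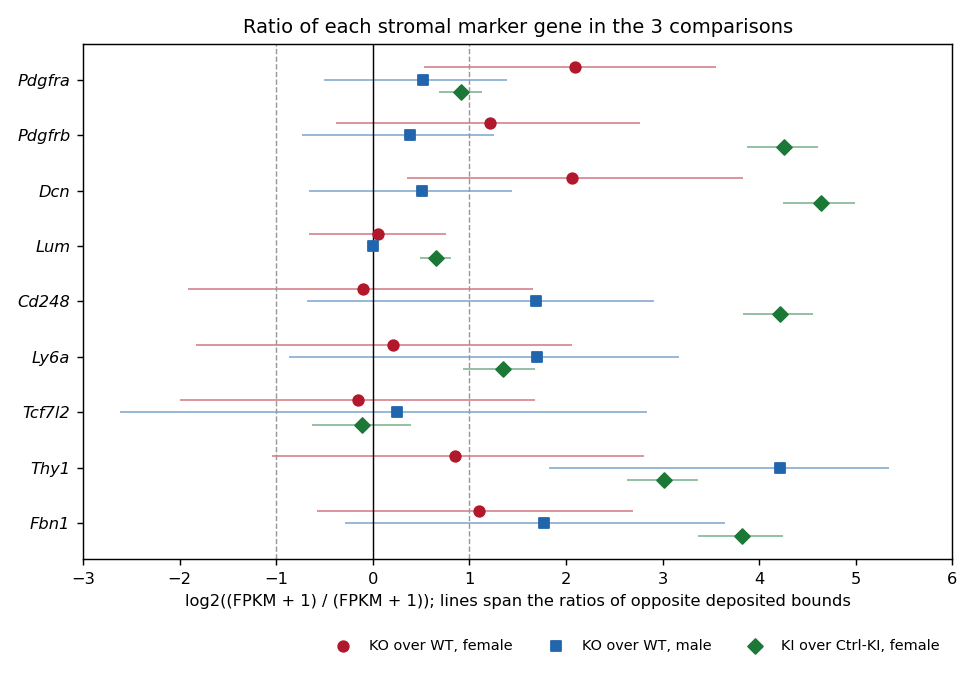
Log2 ratio of each marker gene with 1 FPKM added (x axis; points) in the female KO, male KO and KI comparisons (circles, squares, diamonds); thin lines run between the ratios formed from opposite deposited bounds and are no standard errors, and dashed lines mark 2-fold. Dcn, Pdgfrb, Cd248, Fbn1 and Thy1 lie at 3.02 or more in the KI comparison, Thy1 at 4.22 in males, and Tcf7l2 within 0.25 of 0 in all 3.

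Counted over all 9 members, 4 were at least 2-fold higher in female KO than in WT cells, against 2.4% of 23109 loci and 4.49% of the 12344 with at least 1 FPKM in 1 column. In male KO cells 4 of 9 were, against 4.95% of 22862 loci and 9.9% of the 11440 with at least 1 FPKM. In KI cells 6 of 9 were, against 1.88% of 22762 loci and 3.86% of the 11084 with at least 1 FPKM. At least 2-fold lower were 0 of 9 in each comparison, against 2.35%, 3.24% and 0.435% of loci in the female KO, male KO and KI comparisons. Intervals were apart in the higher direction for 2 of 9 members in female KO (Pdgfra and Dcn), against 0.359% of loci. They were apart for 1 of 9 in male KO (Thy1), against 0.302%, and for 8 of 9 in KI cells, against 7.16%, with Tcf7l2 the exception. In the lower direction they were apart for 0 of 9 in each, against 0.125%, 0.131% and 2.31%. The members' median log2 ratio was 0.85, 0.52 and 3.02 in the female KO, male KO and KI comparisons, where the median over all loci was 0. With 5 FPKM added in place of 1, 1 of 9 was 2-fold higher in male KO and 2 of 9 in female KO cells. With 0.1 FPKM added, 7 of 9 were in male KO cells, since the receptors and Dcn sit under 1 FPKM there. With TPM over all loci 1 of 9 was 2-fold higher in male KO cells.

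The KO comparisons were set together with each sex as 1 measurement, by limma on the female and male log2 ratios against 0 over 10418 genes. Of the 9 members 5 could be fitted, since Pdgfra, Pdgfrb, Dcn and Lum did not reach 1 FPKM in either male column. Of the 5, 0 passed an adjusted p of 0.05, a threshold that 1 gene of all 10418, Gt(ROSA)26Sor, passed upwards (0.0096%) and 0 downwards. Gt(ROSA)26Sor, the Rosa26 locus, was 62.7 FPKM (20.1 to 105) in female KO and 3.01 (0 to 10.2) in female WT cells. In males it was 56.9 FPKM (0 to 151) in KO and 1.92 (0 to 26.7) in WT cells. Both female groups are labelled as carrying the Rosa26 reporter, and the cause of the difference was not tested. Fbn1 was higher in both sexes, by 1.44 ± 0.28 on the log2 scale (mean of 2 sexes ± moderated SE of limma), with an adjusted p of 0.10 from limma. Thy1 was higher in both sexes, by 2.53 ± 0.75 (limma adjusted p = 0.162), but entered the fit only through the KO column of the male table, as Cd248 and Ly6a did. Ly6a had 0.96 ± 0.41 (limma adjusted p = 0.284), Cd248 0.79 ± 0.46 (limma adjusted p = 0.416) and Tcf7l2 0.05 ± 0.26 (limma adjusted p = 0.943). Unadjusted, 2 of the 5 had a limma p under 0.05, Fbn1 and Thy1, where 9.5% of all genes did in the higher direction and 10.2% in the lower. Since Thy1, Cd248 and Ly6a were fitted only because their male KO value was high, the 2 of 5 cannot be judged against these shares. With values rescaled to TPM over all loci, 146 of 9694 genes passed and Thy1 was the 1 member among them (log2 ratio 1.96, limma adjusted p = 0.00509). Over the other settings its limma adjusted p lay between 0.124 (filter of 5 FPKM) and 0.710 (no filter).

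The columns also differed in how much of the markers they held at all, and in their make-up. Summed over the 9 genes the level was 151 FPKM in female KO and 52.8 in female WT cells, 49.8 in male KO and 13.2 in male WT cells, and 131 in KI and 12.7 in Ctrl-KI cells. Without Tcf7l2 it was 148 FPKM in female KO and 49.0 in female WT cells, 37.3 in male KO and 2.78 in male WT cells, and 122 in KI and 2.65 in Ctrl-KI cells. The female WT column, a control, was thus above the other control columns, but the tables were estimated separately and no level was tested across them. Dcn made 46.0% of the sum in female KO and 30.0% in female WT cells. In male KO cells Thy1 made 44.3% and Dcn 1.54%, while Tcf7l2 made 78.9% in male WT cells. In KI cells Fbn1 (25.5%), Dcn (21.6%), Pdgfrb (20.3%) and Cd248 (16.4%) made the largest shares, and Tcf7l2 made 79.1% in Ctrl-KI cells.

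**Figure D3:**
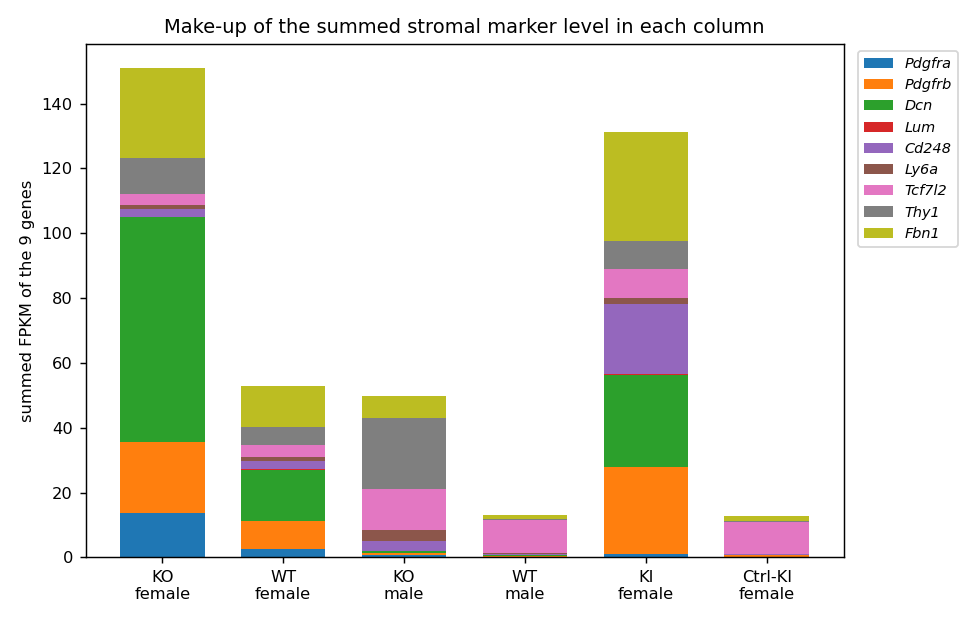
Stacked bars of the FPKM of the 9 marker genes in each column (y axis, summed FPKM; KI and Ctrl-KI columns each pool 2 libraries and no error is drawn). The sums are 151 and 52.8 in female KO and WT, 49.8 and 13.2 in male KO and WT, and 131 and 12.7 in KI and Ctrl-KI cells, with Dcn the thickest band in female KO, Thy1 in male KO and Fbn1 in KI cells.

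Ordered over the 6 columns, Pdgfra ran from female KO through female WT, KI, male KO and male WT to Ctrl-KI cells, and only the first step had intervals apart. Pdgfrb ran from KI through female KO, female WT, male KO and Ctrl-KI to male WT cells, and Dcn from female KO through KI, female WT, male KO and male WT to Ctrl-KI cells. For both, the step with intervals apart lay between female WT and male KO cells. Thy1 ran from male KO through female KO, KI, female WT and male WT to Ctrl-KI cells, with intervals apart between female WT and male WT. Cd248 was highest in KI cells and next in male KO, with intervals apart between them. Fbn1 was highest in KI, then female KO, female WT and male KO cells, and its intervals were apart between male KO and Ctrl-KI, which male WT followed. For Tcf7l2 the male and KI tables came first and the female KO and WT columns last, with intervals apart between KI and female WT cells. Intervals of neighbours overlapped at every step for Ly6a and Lum, and steps between tables compare values that were scaled separately.

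Windows around the annotated start, from 250 bases before to 50 after it, are given for 3 of the 9 members. Other members were left out here, which does not mean that their sequence is unknown. The windows given are from RefSeq (GRCm38.p6, a later build than the mm9 of the files). They are printed for Pdgfra, Fbn1 and Tcf7l2, 5′ to 3′ on the gene's strand with CpG dinucleotides in capitals. These 3 were not chosen by their ratios, and no comparison between their windows was tested. Pdgfra is at chr5:75152001-75152300 (plus strand), Fbn1 at chr2:125506389-125506688 (minus strand) and the upstream start of Tcf7l2 at chr19:55741560-55741859 (plus strand).
Pdgfra: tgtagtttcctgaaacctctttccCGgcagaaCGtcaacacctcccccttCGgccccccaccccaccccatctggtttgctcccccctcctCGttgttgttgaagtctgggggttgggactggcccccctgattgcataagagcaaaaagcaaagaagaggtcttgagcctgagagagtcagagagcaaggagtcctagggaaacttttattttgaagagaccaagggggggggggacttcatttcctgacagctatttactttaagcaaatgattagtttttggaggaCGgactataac
Fbn1: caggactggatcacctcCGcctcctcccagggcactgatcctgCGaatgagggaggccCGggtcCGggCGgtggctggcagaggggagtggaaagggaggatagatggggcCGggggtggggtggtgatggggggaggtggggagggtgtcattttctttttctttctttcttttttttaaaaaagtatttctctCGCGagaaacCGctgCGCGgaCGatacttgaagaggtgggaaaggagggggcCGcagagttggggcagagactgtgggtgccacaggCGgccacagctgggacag
Tcf7l2: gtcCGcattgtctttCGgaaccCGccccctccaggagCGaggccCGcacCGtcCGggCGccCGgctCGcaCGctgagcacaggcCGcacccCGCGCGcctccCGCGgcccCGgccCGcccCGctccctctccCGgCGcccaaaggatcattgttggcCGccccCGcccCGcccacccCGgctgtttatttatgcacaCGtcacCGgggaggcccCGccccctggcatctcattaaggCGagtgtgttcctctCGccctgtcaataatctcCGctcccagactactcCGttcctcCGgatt
The windows held 5 CpG in Pdgfra, 14 in Fbn1 and 34 in Tcf7l2, where the median of 32851 such windows was 7, and their GC content was 51%, 60.3% and 70.0%. Motif letters were searched on both strands. CANNTG, the E-box bound by MyoD and its relatives, matched 2 times in Pdgfra, 1 time in Fbn1 and 0 times in Tcf7l2, and is in 72.3% of all windows. GGGCGG, the GC box, matched 0 times in Pdgfra, 1 time in Fbn1 and 6 times in Tcf7l2, and is in 35.7% of windows. Its matches overlap CpG by their own letters. Neither TATAAA (13.6% of windows) nor the AP-1 letters TGACTCA (5.2%) matched in the 3 windows. A second, downstream Tcf7l2 window (chr19:55895071-55895370), not printed, differed from the upstream one. It held 7 CpG at 42% GC, with 0 matches of GGGCGG and 1 of TATAAA. These counts describe the letters and say nothing of binding.

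Other genes of fibroblasts and fibro-adipogenic cells were measured as a list of 18. At least 2-fold higher were 4 in female KO, 6 in male KO and 10 in KI cells, against 2.4%, 4.95% and 1.88% of all loci, and 0 were 2-fold lower. Intervals were apart in the higher direction for 0 in female KO, 0 in male KO and 14 in KI cells, against 0.359%, 0.302% and 7.16% of all loci. The KI intervals were the narrowest, and some of the 14 were near 0, such as Pi16 at 0.13 FPKM in KI and 0.0143 in Ctrl-KI cells. The median log2 ratios of the 18 genes were 0.92 in female KO, 0.42 in male KO and 1.75 in KI cells. Col1a1, the type I collagen chain, was 325 FPKM in female KO and 127 in female WT cells, 2.35 in male KO and 1.08 in male WT cells, and 158 in KI and 0.515 in Ctrl-KI cells. Male KO cells held little Col1a1, as they did Dcn. Among the 18 genes, of those with at least 1 FPKM in 1 column, Osr2 had the highest ratio in females (2.51 FPKM in KO and 0.355 in WT cells). In males it was Hic1, a repressor that marks quiescent mesenchymal progenitors, at 6.90 (0 to 17.6) in KO and 0.802 (0 to 4.22) in WT cells. Among the same genes the lowest were Hic1 in females (2.98 in KO and 2.01 in WT cells) and Pdpn in males (75.1 in KO and 65.5 in WT cells). Some restricted markers were near 0 in every column, among them Pi16 (at most 0.13 FPKM) and Clec3b (at most 0.122).

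Markers of other cell types were also higher in some of the same columns, and their part in the results was not tested. In KI cells intervals were apart in the higher direction for 8 of 10 endothelial, 6 of 11 pericyte and smooth muscle and 4 of 7 immune markers, against 7.16% of all loci. They were also apart for 4 of 6 Schwann and glial, 3 of 5 tendon, 1 of 7 adipocyte and 0 of 8 myogenic markers. In the lower direction they were apart for 1 pericyte and smooth muscle, 1 immune and 1 myogenic marker, against 2.31% of all loci. The KI intervals were the narrowest, and genes near 0 were among those apart. In the KI comparison 2 of 10 endothelial and 1 of 6 Schwann and glial markers reached 1 FPKM in 1 column. Pecam1 was 0.219 FPKM in KI and 0.0243 in Ctrl-KI cells, while Eng was 7.64 in KI and 2.12 in Ctrl-KI cells. Of 10 endothelial markers 0 were at least 2-fold higher in female KO, 4 in male KO and 1 in KI cells (2.4%, 4.95% and 1.88% of all loci). Their sum was 38.2 FPKM in female KO and 21.8 in female WT cells, 70.6 in male KO and 1.40 in male WT cells, and 14.4 in KI and 7.09 in Ctrl-KI cells. The last 2 sums include Esam, merged there with BC024479, at 4.98 FPKM in KI and 4.78 in Ctrl-KI cells. In the male KO library, where Thy1 led the stromal markers, endomucin, Emcn, was 40.6 FPKM, against 0.0268 in male WT cells. There Eng was 13.3 FPKM in male KO and 1.17 in male WT cells and Pecam1 3.20 in male KO and 0.051 in male WT cells, while the receptor Kdr was 0.122 in male KO and 0.0149 in male WT cells. In females, among those with at least 1 FPKM in 1 column, Esam had the highest ratio, with 6.26 FPKM in KO and 2.73 in WT cells, and Eng the lowest, with 4.86 in KO and 3.59 in WT cells. Pericyte and smooth muscle genes were 2-fold higher in 1 of 11 cases and lower in 2 in female KO, 4 and 2 of 10 in male KO, and 4 and 0 of 11 in KI cells. Over all loci, 2.4%, 4.95% and 1.88% were 2-fold higher and 2.35%, 3.24% and 0.435% lower in these comparisons. Mcam was 6.75 FPKM in female KO and 6.21 in female WT cells, 16.0 in male KO and 3.19 in male WT cells, and 23.8 in KI and 3.99 in Ctrl-KI cells. Of those with at least 1 FPKM, Anpep led in females (19.0 FPKM in KO and 7.05 in WT cells) and Cnn1 in males (4.49 in KO and 0.0397 in WT cells). The lowest were Acta2 in females (312 in KO and 663 in WT cells) and Abcc9 in males (2.73 in KO and 14.9 in WT cells). Rgs5 was 2.31 FPKM in female KO and 2.86 in female WT cells, 6.40 in male KO and 2.06 in male WT cells, and 1.89 in KI and 0.824 in Ctrl-KI cells.

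Among blood-cell markers, Ptprc, the pan-leukocyte antigen CD45, was at most 0.224 FPKM (KI), while the macrophage gene Lyz2 was 0.943 FPKM in female KO and 0.357 in female WT cells, 7.94 in male KO and 0.681 in male WT cells, and 31.0 in KI and 0.282 in Ctrl-KI cells. Of 7 immune markers 1 was 2-fold higher in each comparison, in females Csf1r (2.58 FPKM in KO and 0.477 in WT cells). For this and the lists that follow, the share of all loci 2-fold higher was 2.4% in female KO, 4.95% in male KO and 1.88% in KI cells. The immune markers summed to 16.1 FPKM in female KO and 8.92 in female WT cells, and in the other tables their sum was mostly Cd68, which is merged there with Eif4a1 and Senp3. Of 7 adipocyte markers 0, 2 and 0 were 2-fold higher in female KO, male KO and KI cells, and Plin1, Cidec and Adipoq stayed at or under 0.235 FPKM. Cebpa was 6.47 FPKM in female KO and 3.91 in female WT cells, and 19.9 in male KO and 5.69 in male WT cells, whereas Pparg stayed at 2.50 FPKM or less. Fabp4, a fatty-acid carrier of fat and endothelial cells, was 33.4 FPKM in female KO and 25.6 in female WT cells, 1.50 in male KO cells and listed at 0 in male WT cells. Of 6 Schwann and glial markers 0 reached 2-fold in any table, and of 5 tendon markers 1, 0 and 0 did, the first being Thbs4 in females (13.2 FPKM in KO and 4.49 in WT cells). Of the tendon genes with at least 1 FPKM in 1 column, Scx had the lowest ratio, with wide intervals that reach 0. It was 7.83 FPKM (0 to 45.0) in female KO and 12.9 (0 to 49.5) in female WT cells, and 90.5 (0 to 213) in male KO and 130 (0 to 312) in male WT cells. Mkx had the highest ratio of them in males, at 1.12 in KO and 0.479 in WT cells. Mbp, a myelin protein gene, was 2.62 FPKM in female KO and 2.30 in female WT cells. Of 8 myogenic genes 2 were at least 2-fold lower and 0 higher in female KO, 2 lower and 1 higher (Pax7) in male KO, and 0 lower and 0 higher in KI cells. The share of all loci 2-fold lower was 2.35%, 3.24% and 0.435% in these comparisons. The myogenic genes summed to 1717 FPKM in female KO and 3047 in female WT cells, 3077 in male KO and 7179 in male WT cells, and 5294 in KI and 6664 in Ctrl-KI cells, with medians of -0.68, -0.83 and -0.44. Every column thus carried markers of its labelled cell type. Desmin, Des, was 308 FPKM in female KO and 705 in female WT cells, and Myog, which drives differentiation, 961 in male KO and 3424 in male WT cells, while Pax7 was 5.54 in female KO and 4.33 in female WT cells, and 16.3 in male KO and 5.82 in male WT cells.

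**Figure D4:**
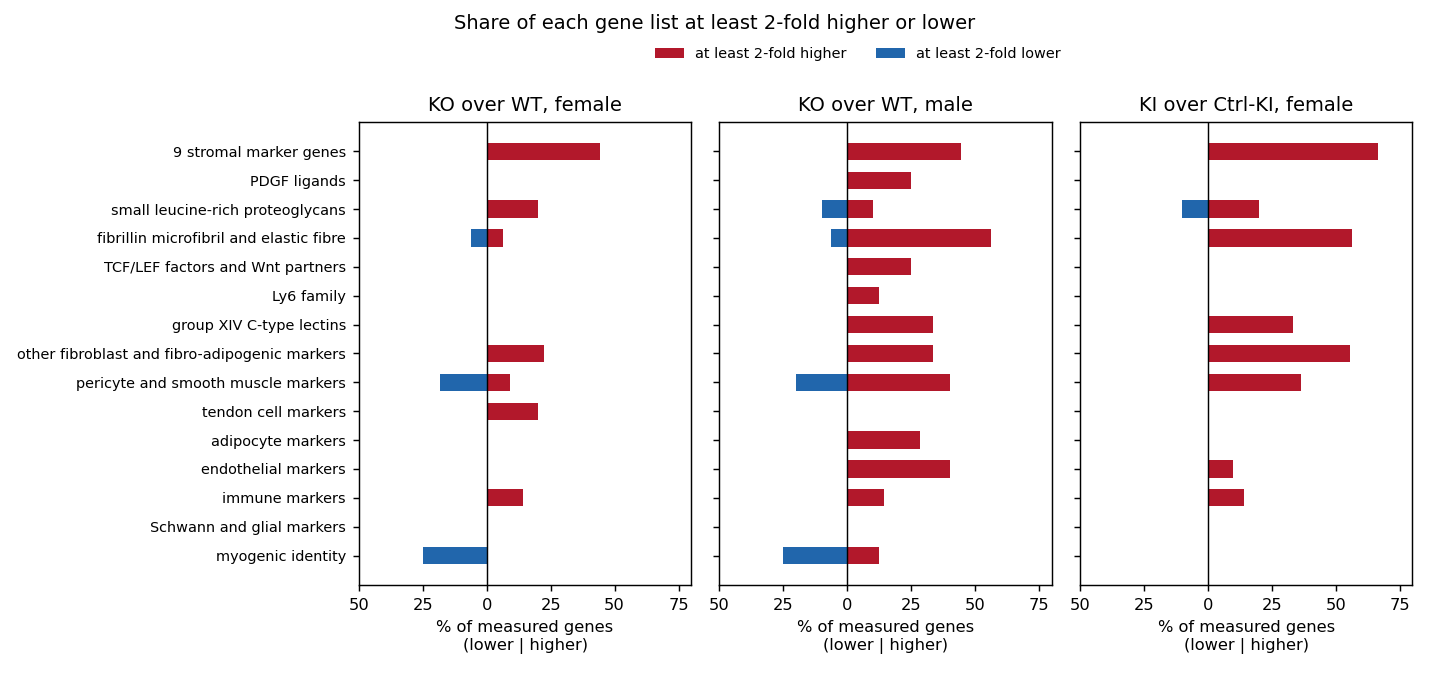
Share of the measured genes of each list that were at least 2-fold higher (red, right of 0) or lower (blue, left of 0) in the female KO, male KO and KI comparisons; x axes in percent, no expression filter, and no error since each column is 1 value. The 9 stromal markers reach 4 of 9, 4 of 9 and 6 of 9 higher, other fibroblast markers 4, 6 and 10 of 18, and the myogenic genes 2, 2 and 0 of 8 lower. Over all loci, 2.4%, 4.95% and 1.88% were higher and 2.35%, 3.24% and 0.435% lower.

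The genes with the most similar pattern were taken by the distance between their 3 log2 ratios and a member's, over 6931 or 6932 genes with at least 5 FPKM in 1 column of each table. Fbn1 lay closest to Csrp2 (distance 0.40), a LIM-domain protein of smooth muscle, and to the fibrillar collagen Col3a1 (0.41), which was 142 FPKM in female KO and 81.4 in female WT cells, 59.1 in male KO and 16.4 in male WT cells, and 112 in KI and 8.72 in Ctrl-KI cells. Thy1 lay closest to caveolin-1, Cav1 (0.66), and Fbln2 (0.67). Ly6a lay closest to the collagen receptor Mrc2 (0.16) and Csrp1 (0.18), and Cd248 to D0H4S114 (0.72) and Crip1 (0.86). Tcf7l2 lay closest to Gna11 (0.01) and 2310036O22Rik (0.05), all with ratios near 0. The other 4 members did not reach 1 FPKM in every table and were not compared. The distances rest on 3 ratios each and carry no test.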

How the data were processed

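Total RNA of 8 libraries was sequenced. The authors deposited 3 gene tables with FPKM, confidence bounds and a status for each column, per the file headers. The submitters' processing notes name edgeR, Cuffdiff, HTSeq 0.6.1, Cufflinks 2.2.1, bedtools 2.16.2, TopHat2 2.0.12, Bowtie2 2.2.4 and the build mm9, without their roles. Male and female knockout columns hold 1 library each, and KI and Ctrl-KI columns pool 2, so the test planned for separate KI libraries was not possible.

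Loci with a symbol and status OK in both columns were used (23109 female, 22862 male, 22762 KI). Starts are printed 1 higher than deposited, since 227 of 233 microRNA loci matched RefSeq lengths only with starts counted from 0. Strand handling is not stated, so overlapping genes and close paralogues are uncertain. Ratios were formed within each table with 1 FPKM added, and 2-fold was the call. For both sexes together, limma 3.58.1, run in R 4.3.3 with its trended prior, fitted the 2 knockout ratios of genes with at least 1 FPKM in 1 column of each table with 1 residual degree of freedom; p-values were adjusted by Benjamini-Hochberg over all genes, threshold 0.05; the fit was tested on simulated data. In the joint fit p-values measure only the spread between single libraries of each sex. Python 3.11.15, pandas 2.3.3 and matplotlib 3.10.9 were used, and 0 columns of samples were left unused.

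The members and the other 14 gene lists were chosen with earlier results of these data known. Named are the members, Kdm6a, the highest and lowest gene of each list by ratio in each knockout table among genes with at least 1 FPKM in 1 column, and the 2 closest genes per member, except 1 list gene that is not reported here; Pdgfa, Gt(ROSA)26Sor, Col1a1, Kdr, Mcam, Rgs5, Ptprc, Lyz2, Pi16, Clec3b, Plin1, Cidec, Fabp4 and Adipoq were named after their values were seen.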

Additional observations from a re-analysis of the deposited data

Results flagged for a closer look

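Cd248 was lower in female KO than in female WT cells and higher in male KO than in male WT cells, with log2 ratios of -0.10 and 1.69. Tcf7l2 showed the same opposition at a smaller size, with -0.16 in females and 0.25 in males. Each sex has 1 library per group, so the difference between the sexes was not tested, and the intervals of both columns overlap in each case. The directions also depend on the scaling. With TPM over all loci Cd248 in females was 0.02 and Tcf7l2 in males was -0.44.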

How the results depend on the processing

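Of 67 values of member counts recomputed under other settings, 60 stayed within 1.5 times the reported count. Several of these could not change. All 9 members had status OK, so taking loci of every status altered nothing. A 2-fold call with 1 FPKM added already needs 1 FPKM in 1 column, so that filter left those counts as they were. The counts of members 2-fold lower were 0 in every setting. Of 219 values of single member ratios, 37 moved, which here means that they left the span between the ratios of opposite deposited bounds. Most of them were in KI, whose intervals were the narrowest, so the count does not compare the tables. In KI, Dcn was 6.71 with 0.1 FPKM added and 2.69 with 5, Pdgfrb 5.63 and 2.54, and Ly6a 3.54 and 0.40. In males Thy1 was 2.37 with 5 FPKM added, against 4.22, and did not count as moved. The KI count of members at least 2-fold higher lay between 5 and 8. Members at least 2-fold higher in female KO numbered 2 with 5 FPKM added, against 4. In male KO they numbered 7 with 0.1 FPKM added, 1 with 5 FPKM added, 2 among members with at least 5 FPKM, and 1 with TPM over all loci, against 4. In KI, intervals were apart for 5 of the 6 members with at least 5 FPKM, against 8 of 9. The added FPKM and the filter act on low members by construction. The joint fit called 0 members, except with TPM over all loci, where it called 1, Thy1; the cause was not tested. There loci without a symbol hold 86.1% of the summed FPKM in male KO and 72.8% in male WT cells, and the median ratio of genes over 1 FPKM was -0.64, against -0.02 as deposited. In KI it was -0.76, against -0.04, and the share of higher genes among all 2-fold calls was 10.4%, against 81.2%. In males that share was 9.12%, against 60.5% as deposited and 70.4% with TPM over loci with a symbol. In females it was 72.9% with TPM and 63.2% with median-centred ratios, against 50.5%, with medians of 0.08 and 0, against -0.08. The joint log2 ratio of Tcf7l2 turned to -0.23 with TPM over all loci and to -0.0083 with the KI ratio added. For Fbn1 the limma adjusted p lay between 0.0655 and 0.663 over the alternatives, and its ratio was positive in all of them. Genes called in the joint fit numbered 120 with a filter of 5 FPKM and 146 with TPM over all loci, against 1. Leaving out 1 sex left no test and gave 1.10 to 1.78 for Fbn1, 0.85 to 4.22 for Thy1, 0.21 to 1.71 for Ly6a, -0.10 to 1.69 for Cd248 and -0.16 to 0.25 for Tcf7l2. No paired analysis was possible because the replicates numbered alike in KI and Ctrl-KI are pooled in 1 column per group; leaving out single KI libraries could not be run either. In males the intervals of 8 members reach 0 in KO or WT cells.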
